A study of Mus musculus with 267 samples.

Results

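Acetylation of histone H3 at lysine 27 (H3K27ac) was compared between BALB/cJ (BALB) bone marrow–derived macrophages (BMDMs) given interleukin-4 (IL-4) for 24 h and untreated BMDMs of the same strain, called basal. The values are chromatin immunoprecipitation sequencing (ChIP-seq) tags in 54022 regions of open chromatin, each 1000 bp wide, in 2 basal and 2 24 h libraries, 4 of the 267 samples of the series. All regions of the BALB table entered, and a region is in it through a peak of open chromatin found by ATAC-seq in either condition. The wider study compared several inbred mouse strains by ChIP-seq for histone marks, RNA polymerase II (Pol II) and transcription factors. The BALB mice were healthy females of 8 to 12 weeks, per the study's methods. Both groups were cultured from bone marrow with macrophage colony-stimulating factor (M-CSF) for 7 days, and the treated group received 20 ng/mL of recombinant mouse IL-4. The libraries are described as biological replicates, and the labels do not tie them to animals, so the p-values below measure the spread between these libraries. The fit took that spread over regions of like mean level. The standard error and p-value of a region therefore do not follow the spread of its own replicates.

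H3K27ac is placed on nucleosomes by acetyltransferases such as p300 and CBP and marks promoters and enhancers that are in use. IL-4 binds its receptor on the macrophage surface and activates the kinases JAK1 and JAK3, which phosphorylate the transcription factor STAT6. STAT6 enters the nucleus, binds palindromic elements and switches on genes of the alternatively activated macrophage, which is known for roles in tissue repair, lipid metabolism and defence against worms.

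The sequences below show what DNA lay at the centre of regions on which the results turn. *Ang5*, *Anks1* and *Il31ra* name regions among the 12 largest rises, *Arg1* names the region with the most H3K27ac beside a classical IL-4 target gene, and *Map3k5* names a region among the 12 largest falls. Each is the central 300 bp of the region on the plus strand of mm10, read from the RefSeq copy of the reference assembly, so the letters are not BALB alleles. Capitals mark matches on either strand to any of 8 consensus motifs, among them STAT6 TTCNNNNGAA, AP-1 TGANTCA, C/EBP TTGCNNAA and an interferon regulatory factor (IRF) motif of a pair of GAAA with 2 bases between, and positions are counted from 1 at the first base. The lines give chr14:43967245-43967544 near *Ang5* (intergenic), chr17:27968001-27968300 near *Anks1* (intron 1 of NM_001286040), chr13:112551683-112551982 near *Il31ra* (intron 5 of NM_139299), chr10:24930191-24930490 near *Arg1* (intergenic) and chr10:19941978-19942277 near *Map3k5* (intron 1 of NM_008580).
Ang5: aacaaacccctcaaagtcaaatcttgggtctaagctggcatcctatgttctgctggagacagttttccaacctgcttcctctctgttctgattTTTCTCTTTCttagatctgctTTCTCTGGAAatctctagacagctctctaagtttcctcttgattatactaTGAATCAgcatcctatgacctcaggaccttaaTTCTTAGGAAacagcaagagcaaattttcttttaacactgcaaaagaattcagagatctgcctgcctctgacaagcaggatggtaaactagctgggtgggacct
Anks1: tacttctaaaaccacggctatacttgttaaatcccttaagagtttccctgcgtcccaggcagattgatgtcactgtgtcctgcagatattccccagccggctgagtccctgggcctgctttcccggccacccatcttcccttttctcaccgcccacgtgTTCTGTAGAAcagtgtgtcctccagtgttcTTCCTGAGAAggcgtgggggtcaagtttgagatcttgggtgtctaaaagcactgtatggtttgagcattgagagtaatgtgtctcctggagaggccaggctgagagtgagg
Il31ra: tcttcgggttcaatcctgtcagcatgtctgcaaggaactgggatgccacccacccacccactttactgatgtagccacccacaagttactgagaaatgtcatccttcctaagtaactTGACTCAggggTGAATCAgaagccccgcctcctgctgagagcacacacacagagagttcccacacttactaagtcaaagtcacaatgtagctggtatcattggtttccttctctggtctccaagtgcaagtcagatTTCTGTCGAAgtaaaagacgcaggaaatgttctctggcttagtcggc
Arg1: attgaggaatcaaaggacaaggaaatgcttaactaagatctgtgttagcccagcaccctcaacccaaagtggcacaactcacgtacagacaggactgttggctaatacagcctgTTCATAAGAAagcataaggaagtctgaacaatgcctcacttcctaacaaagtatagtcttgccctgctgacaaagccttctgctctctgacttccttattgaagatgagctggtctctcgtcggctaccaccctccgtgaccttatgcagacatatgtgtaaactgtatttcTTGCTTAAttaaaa
Map3k5: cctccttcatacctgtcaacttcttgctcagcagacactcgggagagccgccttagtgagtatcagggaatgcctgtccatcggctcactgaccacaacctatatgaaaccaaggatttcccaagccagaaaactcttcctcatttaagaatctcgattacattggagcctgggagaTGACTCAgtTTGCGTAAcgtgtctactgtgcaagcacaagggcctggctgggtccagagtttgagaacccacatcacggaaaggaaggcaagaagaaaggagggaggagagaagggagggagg

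In the *Ang5* window the STAT6 motif occurred at positions 115 to 124 and 197 to 206, around an AP-1 match at 165 to 171. In the *Anks1* window it occurred at 160 to 169 and 190 to 199, and in the *Il31ra* window at 254 to 263, after AP-1 matches at 118 to 124 and 129 to 135. The *Arg1* window held a STAT6 match at 115 to 124 and a C/EBP match at 287 to 294. The *Map3k5* window held an AP-1 match at 178 to 184 and a C/EBP match at 187 to 194 and no STAT6 match. Over all 54022 windows of this length, 7.97% held the STAT6 motif, 19.2% the AP-1 motif, 15.1% the C/EBP motif and 4.78% the IRF motif. A match is a description of the letters and was not tested as a binding site.

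The libraries held 13280047 to 20991422 tags. Values are tags per 10000000 tags of the library (normalized tags), so that 1 normalized tag stood for 1.33 to 2.10 reads. In basal replicates 1 and 2 and in 24 h replicate 1, 58.6%, 51.2% and 57.1% of all tags lay in the regions. In 24 h replicate 2 the share was 28.7%, and its median region held 26.7 normalized tags against 40.5 to 44.1 in the other libraries. The median log2 fold over all regions was accordingly -0.30, and it was 0.05 without 24 h replicate 2, -0.65 without 24 h replicate 1 and 0.02 after scaling each library by its median ratio over the regions. Folds below are relative to the total tags of a library and are to be read against the shift of -0.30. The 10 regions on the mitochondrial genome, which carries no histones, held 124 to 242 normalized tags in 24 h replicate 2 and 2.38 to 44.1 in the other libraries. Of these regions 8 were called higher by the test described next, with overlapping groups, and 0 were called without 24 h replicate 2 or with median-ratio scaling.

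H3K27ac rose in 866 regions (1.60% of those tested) and fell in 353 (0.653%) by limma with a Benjamini-Hochberg adjusted p under 0.05 (n = 2 libraries per group). Regions that rose were mostly weakly acetylated in basal macrophages, with a median of 5.62 normalized tags that became 37.1 at 24 h, and regions that fell went from a median of 59.0 to 11.8. The rises counted 820 separate intervals near 587 genes, and the falls 332 intervals near 258 genes, where each region takes the protein-coding gene with the nearest start. Of the 14313 genes nearest to any region, 6 had regions called in both directions, and whether that is few for lists of these lengths was not tested. Log2 folds ran from 1.82 to 5.96 (median 2.45) among the rises and from -3.63 to -1.81 (median -2.15) among the falls, where the test sets the smallest size that is called. The 24 h libraries lay above both basal libraries in 13.04% of all regions and below them in 28.8%. The groups did not overlap in 848 of the 866 rises and in 349 of the 353 falls.

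The counts of rises and falls moved with single libraries. With 1 library left in a group, limma's spread comes from the pair of the other group, and the lone library is assumed to vary alike. Without 24 h replicate 2, limma called 725 regions higher, of which 509 were among the 866, and 203 lower, of which 133 were among the 353. Without 24 h replicate 1 it called 492 higher and 3381 lower, without basal replicate 1 409 and 126, and without basal replicate 2 615 and 102. Every one of the 866 and the 353 kept its direction without 24 h replicate 2 and with median-ratio scaling. Called regions have large folds and mostly groups that do not overlap, so a kept direction was nearly settled beforehand and is no separate support. A rule of size alone, at least 2.5-fold between group means plus 1 with at least 16 normalized tags in either group, found 1532 rises (2.84%) and 2772 falls (5.13%). With median-ratio scaling the same rule found 2382 rises and 1128 falls. The larger number of falls by this rule therefore turned with the scaling, and the part of the low enrichment of 24 h replicate 2 in single falls was not tested.

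**Figure D1:**
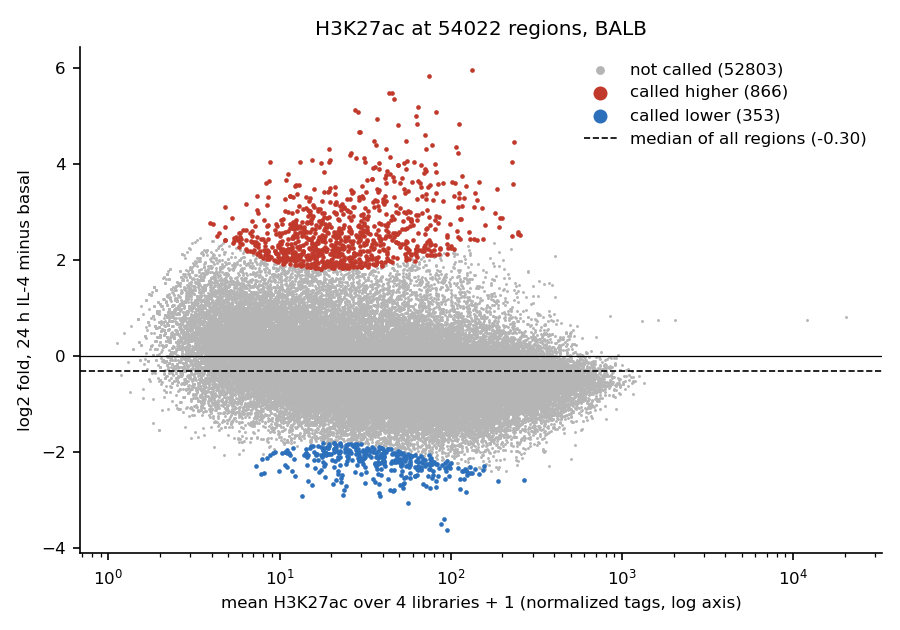
Log2 fold of H3K27ac (24 h against basal) on the vertical axis against mean level in normalized tags (log axis) for 54022 BALB regions, with regions called higher and lower by limma in color. The 866 rises sit mainly at low to middle mean levels, and the cloud of all regions is centred below 0 at a median of -0.30.

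The 12 largest rises, taken 1 per nearest gene, started from almost no acetylation. Their basal values lay between 0 and 6.55 normalized tags and their 24 h values between 38.6 and 395. Groups that do not overlap were a condition of the choice of these rises and of the falls below. The largest lay between genes of the ribonuclease A family near *Ang5*, an angiogenin gene (chr14:43966895-43967895). It held 2.94 and 2.38 normalized tags in the basal libraries and 395 and 130.05 in the 24 h libraries, a log2 fold of 5.96 ± 0.58 (SE; limma adjusted p = 1.3e-20). Both treated libraries were far above both basal ones, and replicate 1 was the higher of the pair, as it was in all 12 regions.

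Near *Wars2*, which encodes the mitochondrial tryptophanyl-tRNA synthetase, the values were 0.73 and 0.60 in basal and 127 and 42.9 at 24 h (chr3:99130122-99131122). The basal libraries held 2 reads there together and the 24 h libraries 258, a ratio of 114 with a 95% exact interval for counting error alone of 31.4 to 950. In intron 1 of NM_001286040 near *Anks1*, an adaptor with ankyrin repeats, the values went from 0.73 and 1.19 to 98.6 and 75.8 (chr17:27967651-27968651, ratio 85.7, interval 29.0 to 418). In an intron of *Il31ra*, a subunit of the interleukin-31 receptor, the basal values of 2.94 and 1.79 stood against 111 and 76.7 (chr13:112551333-112552333, log2 fold 4.81, limma adjusted p = 2.1e-14).

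The region in the gene end of *Tnp2*, which encodes a protein of sperm chromatin, lies 1436 bp from the *Tnp2* start and next to *Socs1*, a feedback inhibitor of cytokine receptors. It went from 1.47 and 3.57 to 143 and 105 normalized tags (log2 fold 5.20, limma adjusted p = 1.1e-16). The promoter of *Msx3*, a homeobox gene, went from 1.47 and 0 to 68.5 and 40.0 (log2 fold 5.09, limma adjusted p = 1.2e-14). The basal libraries held 2 reads at *Msx3* together, so its ratio of 77.6 has a counting interval of 21.2 to 646. The other regions of this group lay near *Pex26*, a peroxisome biogenesis gene, *Tex9*, *Ddhd1*, which encodes a phospholipase, *Chic2*, *March10*, a ubiquitin ligase gene, and *Ang2*, another angiogenin gene, with log2 folds of 5.36, 5.13, 5.00, 4.95, 4.83 and 4.83. With 3 reads at *Pex26* and 2 at *Tex9* in the basal libraries, the ratios were 81.9 (27.7 to 399) and 75.4 (20.5 to 627).

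All 12 rises lay at ATAC-seq peaks found at 24 h and not in basal macrophages. Such regions were 22.8% of all and entered only through the treated group. The 24 h peak list of STAT6 covered 10 of the 12 rises, all but those at *Tnp2* and *Msx3*, and the basal STAT6 list covered 0. These lists covered 28.6% and 20.8% of all regions. The STAT6 motif was in the central 300 bp of 10 of the 12, against 7.97% of all regions. Pol II, which was measured in libraries of its own, had a log2 fold above 0 at all 12 and was called higher at 7. Over all regions these shares were 68.7% and 0.663%. Without Pol II basal replicate 3, 0 regions were called for Pol II. Near *Ang5*, Pol II was 0.64, 0.59 and 1.09 normalized tags in 3 basal libraries and 98.1 and 109 in 2 24 h libraries. All 12 remained called with median-ratio scaling and without 24 h replicate 2.

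The 12 largest falls began at moderate to high acetylation, between 12.5 and 274 normalized tags in the basal libraries, and ended between 0 and 45.2. The largest was in the promoter of *Cx3cr1*, the receptor of the chemokine fractalkine, 606 bp from its start (chr9:120068402-120069402). Its values of 137 and 212 in the basal libraries stood against 16.6 and 10.0 at 24 h, a log2 fold of -3.63 ± 0.63 (SE; limma adjusted p = 4.1e-06). The groups were far apart, and without 24 h replicate 2 the log2 fold was -3.29 with an adjusted p of 6.6e-05.

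Between genes near *Mrps23*, which encodes a mitochondrial ribosomal protein, the values went from 169 and 161 to 16.6 and 13.3 (chr11:88233699-88234699, log2 fold -3.39, limma adjusted p = 3.2e-05). In intron 1 of NM_008580 near *Map3k5*, the stress kinase ASK1, they went from 67.6 and 85.2 to 9.04 and 11.4 (chr10:19941628-19942628, log2 fold -2.78, limma adjusted p = 0.00031). The promoter of *Pilrb1*, an activating receptor of the paired immunoglobulin-like type, went from 59.5 and 71.5 to 8.28 and 8.10 (log2 fold -2.85, limma adjusted p = 0.00013). In exon 1 of the inhibitory partner gene *Pilra* the values were 33.8 and 43.5 against 10.5 and 1.43 (log2 fold -2.89).

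Without 24 h replicate 2 the *Pilra* region was not called (log2 fold -1.77, limma adjusted p = 0.27). Nor was that near *Slc15a2*, a peptide transporter gene (log2 fold -2.44, limma adjusted p = 0.054), which was not called without basal replicate 2 either (log2 fold -2.15). The fall near *Anxa5*, an annexin gene, had an adjusted p of 0.17 with median-ratio scaling. The remaining falls had *Map7*, *Cap1*, *Dlx2*, *Ypel5* and *Gm10392* as nearest genes, with log2 folds of -3.05, -2.90, -2.82, -2.79 and -2.77. The *Map7* region lay 90193 bp from the *Map7* start, in intron 9 of NM_008580, the transcript that also holds the *Map3k5* fall. The *Dlx2* region lay 115410 bp from the *Dlx2* start. PU1, the lineage factor of macrophages, had a peak in both the basal and the 24 h list at all 12 falls, lists that covered 81.2% and 79.5% of all regions. The STAT6 motif was at 0 of the 12 falls, which is near its share of 7.97% of all regions. STAT6 had a basal peak at 8 of the 12 and a 24 h peak at 5, against 20.8% and 28.6% of all regions. Pol II had a log2 fold below 0 at 11 of the 12, all but *Slc15a2*, and was called lower at 2, *Cx3cr1* and *Map7*. Over all regions 68.7% had a Pol II log2 fold above 0 and 0.0444% were called lower for Pol II, and 0 were called without Pol II basal replicate 3.

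**Figure D2:**
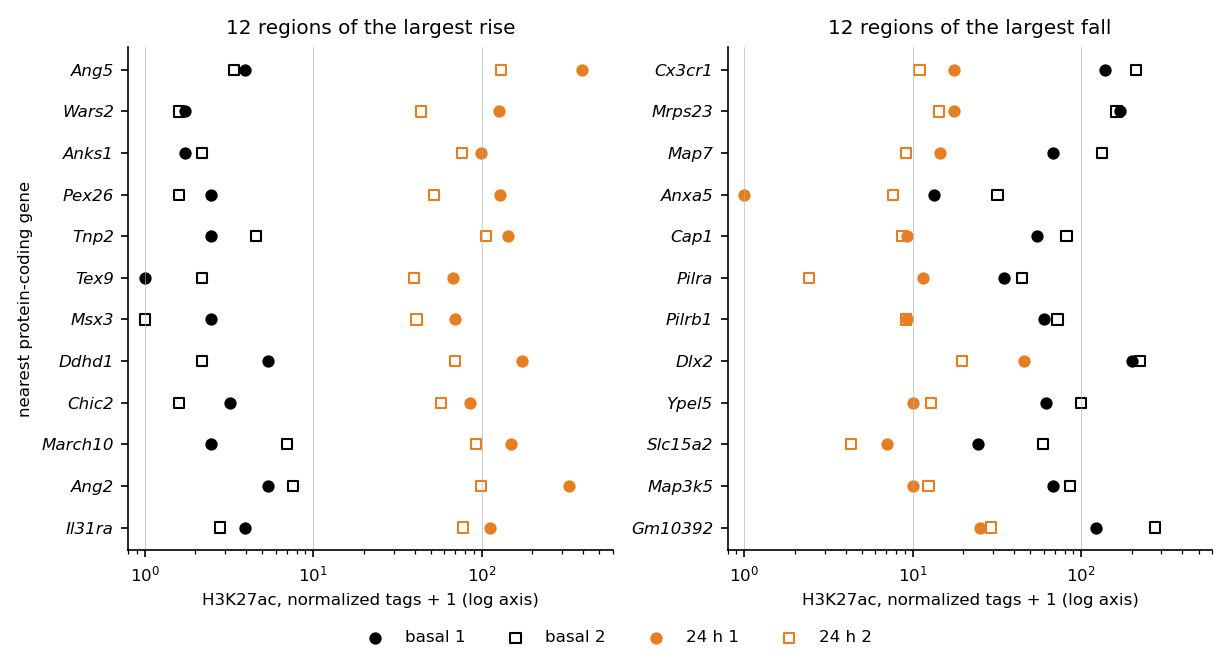
H3K27ac in normalized tags plus 1 (log axis) in each of the 2 basal and 2 24 h libraries at the 12 regions of the largest rise (left) and of the largest fall (right), named by the nearest protein-coding gene. Basal points of the rises stay at or below 6.55 normalized tags and 24 h points at or above 38.6, and groups that do not overlap were a condition of the choice.

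Several genes were nearest to many regions of 1 direction, and which genes these regions act on was not tested. *Hook1*, a gene of endosome transport, was nearest to 13 regions. Of these, 7 rose within 20496 bp of chromosome 4 with log2 folds of 2.12 to 3.77, while the 6 others ran from -1.72 to 0.88. The 7 lay 42323 to 61819 bp from the *Hook1* start in introns of NM_001113412, and the *Hook1* promoter was not called (log2 fold 0.88). The *Cyp1b1* gene, a cytochrome P450 that oxidizes estrogens and xenobiotics, had 6 of 7 regions called higher. Its strongest region lay 71822 bp from its start and went from 63.9 and 70.3 to 568 and 276 normalized tags (chr17:79786383-79787383, log2 fold 2.54, limma adjusted p = 0.046). Its promoter went from 2.94 and 1.79 to 24.1 and 11.9 (log2 fold 2.44, limma adjusted p = 0.0050). *Ang6* had 6 of 7, *Mpp6*, a scaffold protein gene, 6 of 10, *Lrrc32*, whose product displays latent transforming growth factor beta on the cell surface, 6 of 13 and *Mad1l1*, a spindle checkpoint gene, 6 of 15. *Msx3* had 5 of 6, *Rmi2* 5 of 8 and *Otos* 5 of 10. At least 3 regions were called higher near 66 genes.

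All 5 regions nearest to *Arg1*, which encodes arginase 1 and is the textbook marker of IL-4–treated mouse macrophages, were called higher. The strongest of them, shown above by its sequence, lay 2857 bp from the start and held 54.4 and 32.2 normalized tags in the basal libraries and 389 and 140.06 in the treated ones (log2 fold 2.45, limma adjusted p = 0.034). The 24 h libraries were above both basal ones in it, and STAT6 had a 24 h peak there. It was not called by edgeR or without basal replicate 1, basal replicate 2 or 24 h replicate 1, with log2 folds of 2.61, 2.82, 2.08 and 1.72. The other 4 had log2 folds of 2.12 to 3.27, and 3 of the 5 had a STAT6 peak at 24 h.

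The falls gathered near other genes. *Pilra* was nearest to 9 regions, of which 6 fell within 13108 bp of chromosome 5 with log2 folds of -2.89 to -2.26, and the 3 others lay between -1.91 and -1.51. All 3 regions nearest to *Pilrb2*, a related receptor gene, fell as well. *Ly6e*, a membrane protein gene, had 5 of 17 called lower, *Stk17b*, a kinase gene, 5 of 14, *Cx3cr1* 4 of 6 and *Map3k5* 4 of 7. *Maf*, a macrophage transcription factor gene, had 4 of 44, *Prex1* 4 of 37, *Swap70* 4 of 16 and *Lmo2* 4 of 14. The strongest of the called *Stk17b* regions held 287 and 204 normalized tags in the basal libraries and 58.7 and 31.9 at 24 h (chr1:53851040-53852040, log2 fold -2.45, limma adjusted p = 0.035). It lay 66316 bp from the *Stk17b* start in intron 21 of NM_001001883, and the *Stk17b* promoter was not called (log2 fold -1.05). Regions called lower numbered 3 or more near 19 genes.

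A stretch of chromosome 14 with genes of the ribonuclease A family, angiogenins and eosinophil-associated ribonucleases, held many of the strongest rises. It was singled out after the values were seen. The family's genes were nearest to 41 regions, of which 19 were called higher and 0 lower, against 1.60% and 0.653% of all regions. Of the 19, 9 lay at chr14:43965569-44078502 near *Ang5*, *Ang6* and *Ear2* and 10 at chr14:51171782-51254255 near *Rnase2b*, *Ang2*, *Ear14* and *Rnase2a*. Their values ran from 0.73 to 22.1 normalized tags in basal replicate 1 (median 4.41) and from 1.79 to 40.5 in basal replicate 2 (median 10.7). At 24 h they ran from 26.4 to 623 in replicate 1 (median 123) and from 23.8 to 284 in replicate 2 (median 83.4). STAT6 had a 24 h peak at 12 of the 19, and 14 lay at ATAC-seq peaks found at 24 h alone. These shares were 55.1% and 79.1% among all rises and 28.6% and 22.8% among all regions. The genes are close copies of each other, so the place of single reads within the family is uncertain.

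Rises and falls were unevenly spread over the annotation classes of the deposited table, both being scarce at promoters. Of 10802 promoter regions, 0.278% were called higher and 0.157% lower, against 1.71% and 0.673% of 21857 introns and 2.31% and 0.931% of 18269 intergenic regions. Promoters made up 20.0% of all regions but 3.46% of the rises and 4.82% of the falls. Intergenic regions held 48.7% of the rises and introns 43.2%. Among smaller classes the percentages called higher were 0.399% of 501 regions in 5' UTRs, 0.816% of 980 in exons, 1.23% of 567 in 3' UTRs and 1.81% of 830 at transcript ends. Promoter regions were strongly acetylated in both conditions, with a median of 102 normalized tags in basal and 85.7 in 24 h macrophages, against 28.6 and 24.3 in intergenic regions. The median log2 fold was -0.31 at promoters, -0.31 in introns and -0.29 in intergenic regions, and without 24 h replicate 2 it was 0.19, -0.03 and -0.01. With any 1 of the 4 libraries left out, promoters still had lower percentages called in both directions than introns, and introns lower ones than intergenic regions. The median distance to the nearest gene start was 26036 bp for rises, 24039 bp for falls and 11039 bp for all regions.

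The table also records in which condition the ATAC-seq peak behind each region was found. Of 12306 regions with a peak at 24 h alone, 5.57% were called higher, and these 685 regions were 79.1% of all rises, while 25 were called lower. Of 35657 regions with a peak in both conditions, 172 were called higher and 244 lower. Of 6059 regions with a peak in basal macrophages alone, 9 were called higher and 84 lower, which is 1.39% of the class and 23.8% of the falls. Rises were thus mostly at chromatin whose peak was found after IL-4 alone, and falls mostly at chromatin with a peak in both conditions (69.1%). These classes made up 22.8% and 66.0% of all regions. A region with a peak at 24 h alone entered only through the treated group. The share of such regions among the rises is therefore a description and not independent support. They held a median of 11.7 normalized tags in basal and 15.9 in 24 h macrophages, against 67.5 and 50.6 where both conditions had a peak. Among calls made without 24 h replicate 2, the share of rises at peaks found at 24 h alone was 70.3%.

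**Figure D3:**
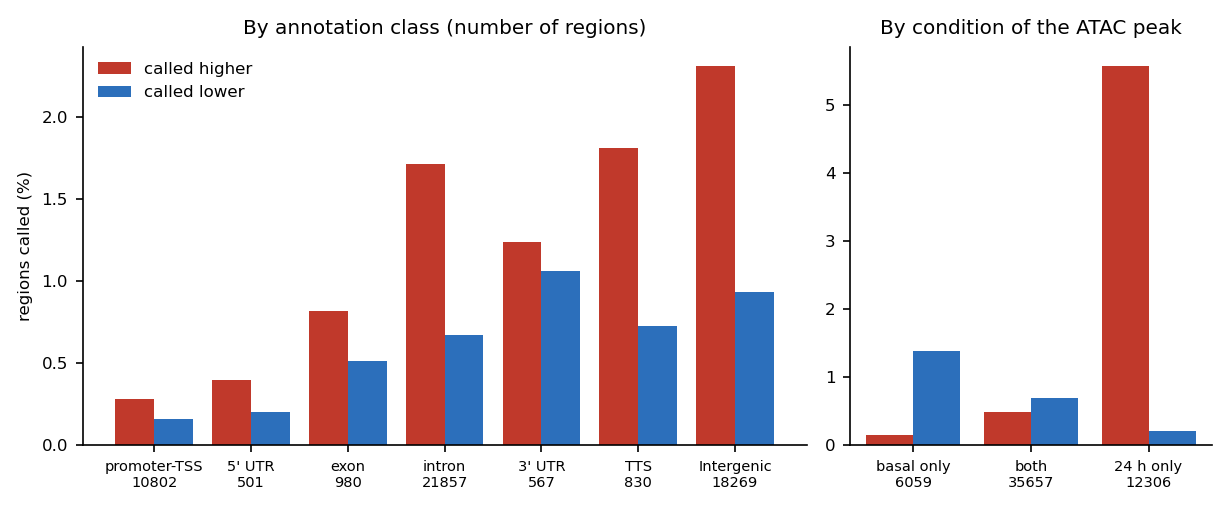
Percentage of BALB regions called higher and lower for H3K27ac by annotation class (left) and by the condition in which the ATAC-seq peak was found (right), with the non-coding class of 206 regions left out. Promoters have the lowest percentages of the annotation classes shown (0.278% higher, 0.157% lower), and regions with a peak at 24 h alone have the highest percentage called higher (5.57%).

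The groups of genes that IL-4 is known to act on are described by the regions within 50 kb of their starts, against the 1.60% and 0.653% of all regions called higher and lower. The lists were chosen with earlier results of these data known, so their percentages are a description and not a test. Called regions near *Ear14* and *Rnase2a*, in the chromosome 14 stretch singled out after the values were seen, count among the effectors of alternative activation. These effectors had 28 of 146 regions called higher (19.2%), 1 lower and a median log2 fold of 0.61. Without 24 h replicate 2 the counts were 26 and 0 and the median 0.88. Near *Slc7a2*, an arginine transporter, 3 of 4 regions rose, and its promoter held 50.0 and 16.1 normalized tags in basal and 662 and 189 in 24 h libraries (log2 fold 3.59, limma adjusted p = 0.00015). The promoter of *Tmem26*, a membrane protein gene, went from 4.41 and 0.60 to 85.8 and 30.0 (log2 fold 4.14, limma adjusted p = 3.7e-10). The promoter of *Flt1*, a receptor of vascular endothelial growth factor, went from 3.67 and 2.98 to 30.1 and 31.9 (log2 fold 2.89, limma adjusted p = 8.3e-05).

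A region near *Chil4*, a chitinase-like gene, went from 2.94 and 1.79 to 41.4 and 17.2 (log2 fold 3.07, limma adjusted p = 3.8e-05). Between the lectin genes *Mgl2* and *Clec10a*, a region went from 13.2 and 29.2 to 175 and 115 (log2 fold 2.78, limma adjusted p = 0.0020). In all of these regions both 24 h libraries were above both basal libraries. The promoter of *Mgl2* held 25.7 and 42.3 against 153 and 102 without passing the test (log2 fold 1.89, adjusted p = 0.12), and passed it with median-ratio scaling (adjusted p = 0.0072).

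Other well-known genes of this group did not pass the test at their main regions. At the promoter of *Mrc1*, the mannose receptor, the basal values of 201 and 244 lay between the 24 h values of 364 and 169 (log2 fold 0.16). The strongest region near *Retnla*, which encodes a resistin-like secreted protein, held 20.6 and 42.9 in basal and 53.5 and 39.5 at 24 h (log2 fold 0.61). The 1 region of the group that fell lay in an intron near *Cx3cl1*, within reach of the *Ccl22* and *Ccl17* starts, and went from 69.8 and 50.6 to 18.1 and 7.62 (log2 fold -2.24, limma adjusted p = 0.0090).

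The suppressors of cytokine signalling (SOCS), feedback inhibitors of the IL-4 receptor among others, had 8 of 57 regions called higher (14.04%) and 0 lower. Of the 8, 4 lay within 50 kb of *Cish* and 4 within 50 kb of *Socs1*, the *Tnp2* gene end among them. The *Cish* promoter went from 19.1 and 5.36 to 98.6 and 37.6 (log2 fold 2.46, limma adjusted p = 0.0022), and the largest of its rises went from 2.94 and 1.19 to 62.5 and 41.0 (log2 fold 4.14). The *Socs1* promoter held 259 and 195 in basal and 803 and 354 in 24 h libraries, without overlap. It had a log2 fold of 1.25 and a limma adjusted p of 0.62, and it passed with median-ratio scaling (0.029). The *Socs3* promoter overlapped between the groups, with 118 and 48.3 against 126 and 25.3.

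Transcription factors that respond to IL-4 had 13 of 183 regions called higher (7.10%) and 3 lower. Around *Batf3*, a partner of IRF4 and AP-1 proteins, 4 of 20 regions rose, and its promoter went from 23.5 and 31.0 to 203 and 121 (log2 fold 2.49, limma adjusted p = 0.015). A region near *Irf4*, an IRF gene of alternative activation, went from 4.41 and 8.94 to 97.9 and 92.4 (log2 fold 3.71, limma adjusted p = 7.3e-08). The *Irf4* promoter itself held 13.96 and 29.8 against 85.1 and 52.4 (log2 fold 1.66, adjusted p = 0.14). Near *Klf4*, a Krüppel-like factor gene, 2 of 8 regions rose, the stronger from 5.14 and 2.38 to 74.6 and 43.4. Near *Bhlhe40*, a transcriptional repressor gene, 3 rose, and *Batf* and *Egr2* had 1 each. The *Egr2* promoter held 152 and 123 in basal and 345 and 120.05 at 24 h, so the groups overlapped (log2 fold 0.57). The *Pparg* promoter held 86.7 and 138 against 233 and 166 (log2 fold 0.84, adjusted p = 0.77). The 3 falls of the group lay near *Egr1*, *Stat6* and *Lrp1*, and none of the 3 was called without 24 h replicate 2.

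Genes of the IL-4 receptor and its signalling had 2 of 119 regions called higher, both in introns near *Irs2*, an adaptor of the receptor, and 2 lower, near *Stat6* and *Lrp1*. The region near *Stat6* went from 165 and 223 to 49.0 and 25.7 (log2 fold -2.40, limma adjusted p = 0.032, but 0.051 without 24 h replicate 2), and the *Stat6* promoter held 804 and 608 against 530 and 261 (log2 fold -0.91, adjusted p = 0.78). Lipid uptake and oxidation genes had 2 of 69 called higher, both near *Tmem52b* within 50 kb of *Olr1*, the receptor of oxidized lipoprotein. Genes of cholesterol efflux had 0 of 71 called in either direction, and major histocompatibility complex class II genes 0 of 76, with median log2 folds of -0.41 and 0.04.

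The inflammatory and NF-kB genes had 5 of 209 regions called lower and 0 higher (median log2 fold -0.55), the falls lying near the chemokine gene *Ccl4*, *Nfkbiz* (2 regions), *Gm16181* and *Cd14*, the lipopolysaccharide co-receptor. With median-ratio scaling those near *Ccl4* and *Cd14* were not called (limma adjusted p = 0.27 and 0.070) and the other 3 were (0.015 to 0.034). The region near *Ccl4* was low throughout, at 8.08 and 16.1 normalized tags in basal and 0 and 4.29 in 24 h libraries. The strongest distal region of *Nfkbiz*, which encodes a nuclear inhibitor protein of the NF-kB family, went from 74.2 and 134 to 27.9 and 17.6 (log2 fold -2.12, limma adjusted p = 0.038, but 0.15 without 24 h replicate 2). Toll-like receptor genes had 2 of 84 lower. The region in the promoter class near *Tlr5*, the flagellin receptor, went from 23.5 and 32.8 to 4.52 and 8.10 (log2 fold -2.02, limma adjusted p = 0.020, but 0.082 without 24 h replicate 2), and a region near *Tlr2*, the lipoprotein receptor, from 152 and 116 to 33.9 and 21.9 (log2 fold -2.24, limma adjusted p = 0.034). Without 24 h replicate 2 no Toll-like receptor region was called, and the inflammatory genes had 5 regions lower and 2 higher with a median log2 fold of -0.01. Of the 5 falls named above, those near *Ccl4* and *Cd14* were called there and the other 3 were not.

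Chemokine receptor genes had 5 of 56 regions lower (8.93%), 4 nearest to *Cx3cr1* and 1 nearest to *Xirp1* within 50 kb of it. Without 24 h replicate 2 all but an intron region of *Cx3cr1* were still called (limma adjusted p = 0.088 for it). The *Cx3cr1* promoter region nearest to the start went from 124 and 194 to 15.8 and 10.5 (log2 fold -3.49, limma adjusted p = 9.1e-06). By contrast, the strongest region near *Ccr2*, the receptor of monocyte chemoattractants, held 541 and 704 against 502 and 252 (log2 fold -0.79, adjusted p = 0.82). Fc gamma receptor genes had 1 of 56 higher, in an intron of *Fcgr2b*, the inhibitory receptor, from 17.6 and 31.0 to 155 and 93.4 (log2 fold 2.31, limma adjusted p = 0.021), and without 24 h replicate 2 the counts were 4 higher and 1 lower. The promoter of the activating receptor gene *Fcgr1* held 317 and 533 in basal and 79.8 and 111 at 24 h, without overlap (log2 fold -2.11, adjusted p = 0.16), and passed without 24 h replicate 2 (0.0029). Interferon-stimulated genes had 1 of 126 higher and 2 lower, near *Gm12216* and *Art3*, and cell cycle genes 1 of 59 higher, near *Mrps36*.

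Genes expressed constantly, such as *Actb*, had 0 of 75 regions called and a median log2 fold of -0.55, which was -0.22 with median-ratio scaling and -0.04 without 24 h replicate 2. Macrophage markers had 1 of 169 called higher, near *Tnfsfm13*, and 0 lower. Regions at genes that define macrophages were strongly acetylated in every library. The promoter of *Csf1r*, the M-CSF receptor, held 310 to 707 normalized tags in the 4 libraries and the strongest region near *Spi1*, the PU1 gene, 548 to 1504. Markers of other cells that bone marrow holds were little called. Neutrophil markers had 1 of 42 regions lower, near *Prtn3* (44.8 and 50.6 against 9.04 and 14.3), which had a limma adjusted p of 0.072 without 24 h replicate 2 and 0.103 with median-ratio scaling. The T cell (37 regions), B cell (26), mast cell and basophil (4), dendritic cell (16), fibroblast (1), endothelial (3) and erythroid (14) markers had 0 called. The summed level of the neutrophil regions was 6531 to 8103 normalized tags in basal and 2956 to 6663 in 24 h libraries, that of the T cell regions 2096 to 3996 and 1065 to 3032, and that of the B cell regions 3130 to 3142 and 1468 to 2638. The macrophage marker regions summed to 45413 to 45607 in basal and 20477 to 41325 in 24 h libraries, and those of the constantly expressed genes to 12664 to 14751 and 5742 to 12590. The part of other cells in the falls was not tested, and fewer cells of a type cannot be told apart from less acetylation per cell.

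**Figure D4:**
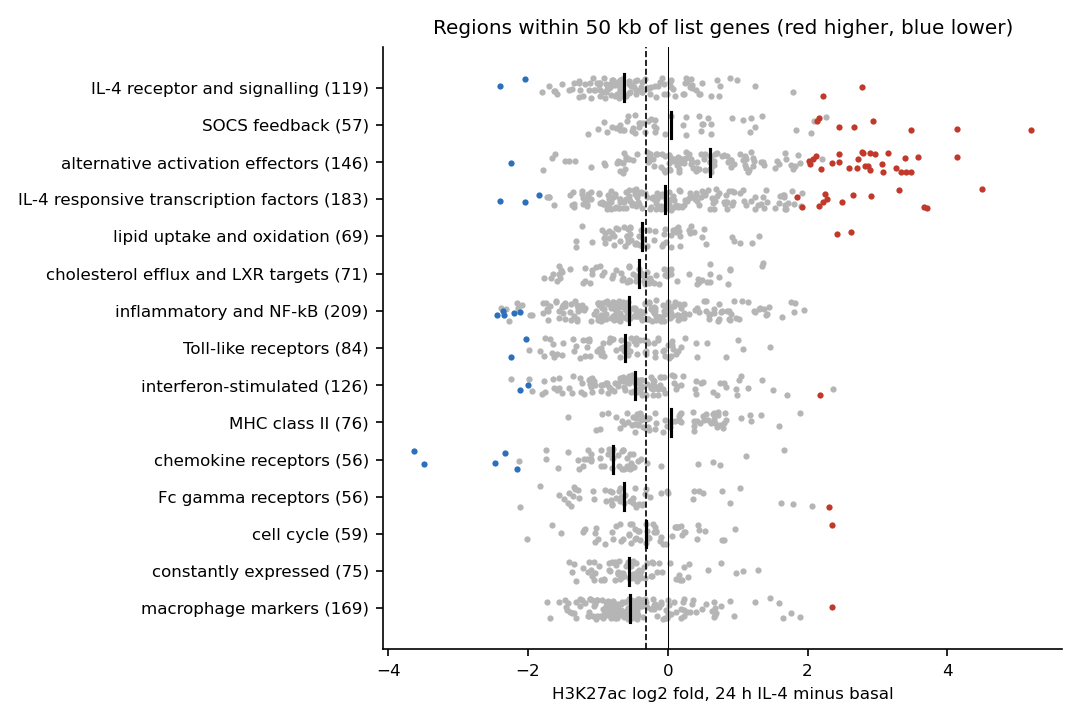
Log2 fold of H3K27ac (24 h against basal) for every region within 50 kb of the genes of each list, 1 point per region, with regions called by limma in color, short bars at the median of a list and the dashed line at the median of all regions (-0.30). Effectors of alternative activation hold 28 of 146 points called higher, the SOCS genes 8 of 57, and chemokine receptors 5 of 56 called lower.

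Pol II and methylation of histone H3 at lysine 4 were measured in the same regions in other libraries. Of the 866 regions where H3K27ac rose, 196 (22.6%) were also called higher for Pol II, against 0.663% of all regions, and the median log2 fold of Pol II was 1.53 against 0.32. Of the 353 falls, 10 (2.83%) were called lower for Pol II, against 0.0444% of all regions, with a median of -0.95. These Pol II calls depended on basal replicate 3 of 3. Without it limma called 0 of 54022 regions (2961 had an unadjusted p under 0.05), although the medians at rises and falls were 1.72 and -1.04. Without any other single Pol II library, 99 to 123 of the 866 were called. With median-ratio scaling 25 of the 866 and 2 of the 353 were called.

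The mark H3K4me2, found at promoters and enhancers, was called higher at 4 of the 866 regions, out of 6 in all (0.0111%). Its median log2 fold was 0.56 at the rises, -0.90 at the falls and -0.63 over all regions, and with median-ratio scaling it was called higher at 103 of the 866 (172 in all). For H3K4me3, the promoter mark, 0 regions passed limma's adjusted threshold and 3408 had an unadjusted p under 0.05. The median log2 fold of H3K4me3 was 0.76 at the rises and -0.42 at the falls, at median levels of 0.97 and 3.92 normalized tags in basal macrophages.

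Transcription factors were mapped in BALB macrophages as 1 peak list per factor and condition, and an overlap of 1 bp with the region counted. Of the rises, 79.1% lay at ATAC-seq peaks found at 24 h alone, against 22.8% of all regions. Such regions entered only through the treated group, so factor peaks gained at the rises are a description and not independent support. The 24 h list of STAT6 covered 55.1% of the rises, 30.6% of the falls and 28.6% of all regions, and its basal list 4.16%, 39.4% and 20.8%. A peak at 24 h without one in basal was present at 50.9% of rises and 6.52% of falls, against 13.5% of all regions. The reverse, a STAT6 peak in basal without one at 24 h, was present at 54 of the 353 falls (15.3%) and at 0 of the rises, against 5.61% of the regions not called. PU1, which opens macrophage enhancers, covered 48.4% of the rises in basal and 78.3% at 24 h, against 92.1% and 82.7% of the falls and 81.2% and 79.5% of all regions. CEBPb, another lineage factor, covered 8.55% and 46.1% of the rises, 32.3% and 50.1% of the falls and 19.9% and 40.4% of all regions.

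EGR2, a zinc finger factor induced by IL-4, covered 41.7% of the rises in basal and 57.2% at 24 h, but 15.9% and 18.1% of the falls, with 39.9% and 44.2% over all regions. The nuclear receptor PPARg covered 3.23% and 39.6% of the rises, 7.65% and 27.5% of the falls and 9.34% and 30.3% of all regions. The length of a list depends on the quality of its libraries, so the percentages are to be read against those of all regions or of regions not called. None of the 5 factors had a 24 h peak at 40 of the 866 rises (4.62%), 35 of the 353 falls (9.92%) and 7.64% of the regions not called.

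The central 300 bp of the regions were searched on both strands of the reference for 8 consensus motifs. The STAT6 motif was held by 36.3% of the rises, 4.25% of the falls and 7.97% of all regions. The AP-1 motif was held by 29.7%, 16.7% and 19.2%, and the PU.1 motif GAGGAAGT by 9.12%, 18.4% and 12.1%. The C/EBP motif was at 16.7%, 21.2% and 15.1%, and the IRF motif at 5.54%, 5.95% and 4.78%. The EGR motif GCGNGGGCG was rare at both, with 0.462% of rises and 0 of 353 falls against 3.41% of all regions. The PPAR/RXR motif, a pair of AGGNCA with 1 base between (0.577%, 0.283% and 0.479%), and the NF-kB motif, GGGA and TTTCC with 1 base between (0.462%, 0.850% and 0.555%) were rare throughout. The letters of 1 motif may overlap those of another in a window.

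Regions were then split by both the motif and the peak of STAT6. Of 2302 regions with both the motif and a 24 h STAT6 peak, 264 were called higher (11.5%) and 4 lower. Of 2006 regions with the motif and no such peak, 50 were called higher (2.49%), and of 13174 with a peak and no motif, 213 were called higher (1.62%) and 104 lower. Of 36540 regions with neither, 339 were called higher (0.928%) and 234 lower. The median log2 fold was 0.15, -0.14, -0.47 and -0.28 in these groups, in that order. Regions with a STAT6 peak but no motif were therefore called higher about as often as all regions (1.60%).

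**Figure D5:**
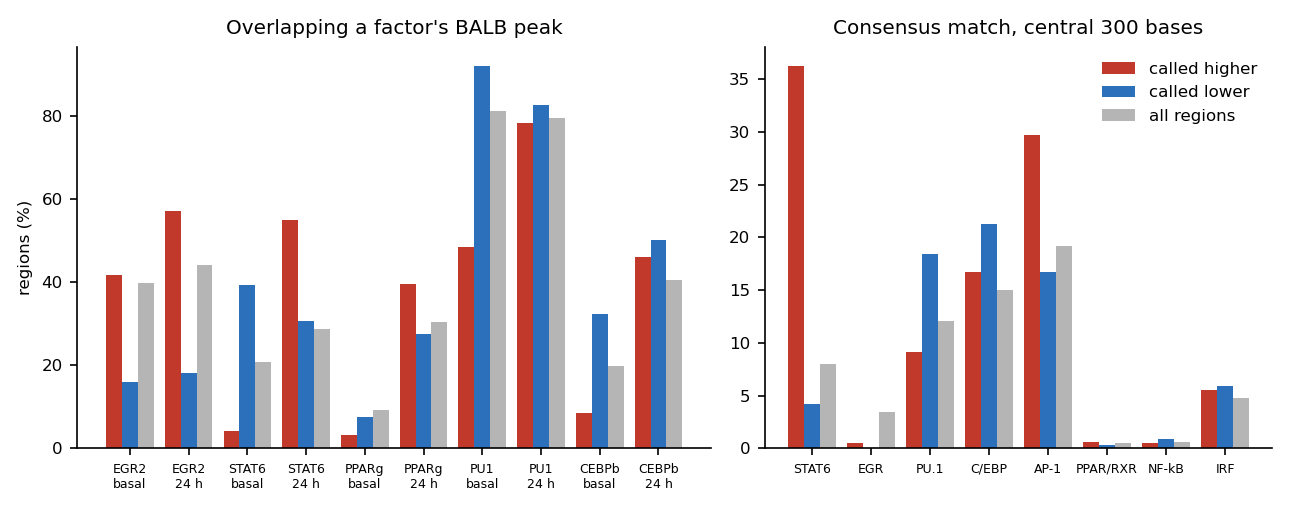
Percentage of regions with a peak of each factor in the basal and 24 h lists (left) and with a match to each consensus motif in the central 300 bp (right), for regions called higher, regions called lower and all 54022 regions. STAT6 peaks at 24 h cover 55.1% of the rises, and the STAT6 motif is in 36.3% of them against 7.97% of all regions.

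The same regions were looked up in C57BL/6J (C57) and NOD/ShiLtJ (NOD) macrophages of the series, in tables normalized separately, by a region centre within 500 bp. A match needs an open region in the other strain, and 45001 of the 54022 regions had one in C57 and 49876 in NOD. Rises and falls without a match are left out of the values below. In C57, 601 of the 866 rises had a match with a median log2 fold of 2.59, and both 24 h libraries were above both basal libraries in 572. The 259 matched falls had a median of -2.03, and both 24 h libraries were below in 234. In NOD, 747 rises matched with a median of 2.41 (693 above) and 334 falls with a median of -1.86 (300 below). Over all matched regions the medians were -0.50 in C57 and -0.29 in NOD, both 24 h libraries were above both basal ones in 13.4% and 14.01%, and both were below in 44.1% and 31.2%. Of the 12 largest rises, 6 had a match in C57, with log2 folds of 3.84 to 5.61, and 10 in NOD, with 3.98 to 5.66. Of the 12 largest falls, 10 had a match in C57 and 12 in NOD, all with log2 folds below 0. The differences between the strains were not tested, and the largest rise, near *Ang5*, had no matching region in either strain.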

How the data were processed

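ChIP-seq of BALB BMDMs was analysed from the deposited BALB tables. As its methods state, the authors used Bowtie2 on a genome of the strain, moved positions to mm10 and kept ATAC-seq peaks reproducible between replicates. The deposited signal values are tags that the authors counted with HOMER in 1000 bp around each peak centre and scaled to 10000000 tags of the library. Multiplied back by the totals in the file headers, 100% of 918374 values were whole reads within 0.1 read, and count tests used these recovered reads. The authors' peak lists stand for a factor and condition each, and their deposited scores were not used. Scaling to library totals does not correct for the share of tags inside regions.

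Groups came from the sample titles, with 2 libraries each, and 54022 regions were tested with limma 3.58.1 (lmFit, eBayes with trend) in R 4.3.3 on log2(normalized tags + 1), with no filter and no replicate block. Folds on this scale understate low regions. Pol II and the methyl marks had fits of their own. The fold rule needed 2.5-fold of means plus 1 and 16 normalized tags. Replicates were not identical (chi-square per degree of freedom 12.6 and 11.6). Intervals cover counting error only. Named regions were the 12 largest rises and falls with 16 normalized tags or more in either group and no overlap, 1 per nearest gene, the promoter and strongest distal region of listed genes, and the 10 genes with the most calls in each direction. Members and lists were chosen with earlier results of these data known. Gene starts came from GENCODE vM21. Motifs were sought in the mm10 reference, and all 54022 regions but 10 on the mitochondrial genome could be read. Alternatives were median-ratio scaling, a pseudocount of 5, a filter of 16 normalized tags, edgeR 4.0.16 and DESeq2 1.42.0 on recovered reads, a replicate block and leaving out each library. Only the main limma fit was tested on simulated reads with known changes. The simulated libraries shared 1 enrichment, so false calls from the low share of tags in regions of 24 h replicate 2 were not covered. Tables used Python 3.11.15 with pandas 2.3.3 and numpy 2.4.6, and plots matplotlib 3.10.9.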

Additional observations from a re-analysis of the deposited data

How the results depend on the processing

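With 2 libraries per group the calls rest on few measurements, and 24 h replicate 2 held the most reads but the smallest share of them in regions. Of the 24 regions of the largest change, all kept their direction in every alternative run for them (the filter of 16 normalized tags was not), and 20 to 24 kept their call in each. These 24 were chosen for the largest folds and for groups that do not overlap, so their kept direction was settled by the choice. Of 866 and 353 regions called higher and lower, median-ratio scaling gave 1130 (677 of them shared) and 366 (155 shared), a pseudocount of 5 812 and 301, a filter of 16 normalized tags 674 and 310, edgeR 690 and 208, and DESeq2 1199 and 575, where 9427 regions had no adjusted p. The replicate number as a block gave 1949 and 2193, all 866 and 353 included. The numbers are not tied to animals, and the deviations of same-numbered libraries correlated at 0.43 over regions. Leaving out 1 library gave 409 to 725 higher and 102 to 3381 lower.

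The fold rule counts of 1532 and 2772 became 2382 and 1128 with median-ratio scaling, 2335 and 6092 at 2-fold, and 802 and 274 where Pol II also had to change. Without a minimum 2455 rose. Leaving out 1 library gave 1129 to 2448 rises and 2008 to 9338 falls. The cause of these moves was not tested.

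With median-ratio scaling, 0.444% of promoters were called higher and 0.250% lower. Leaving out 1 library gave 0.120% to 0.305% and 0.0555% to 4.32% of promoters, 0.769% to 1.40% and 0.178% to 6.04% of introns, and 1.10% to 1.95% and 0.263% to 7.86% of intergenic regions. Pol II calls at rises and falls went from 196 and 10 to 25 and 2 with median-ratio scaling. Where a peak centre had to lie within 200 bp of the region centre, the 24 h lists covered 52.0% (EGR2), 35.0% (PPARg), 73.0% (PU1) and 40.4% (CEBPb) of the rises. Chosen after seeing the data, the calls without 24 h replicate 2 gave rises of which 42.5% held a STAT6 motif, 70.3% lay at ATAC-seq peaks found at 24 h alone and 64.3% had a STAT6 peak.

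Promoters that did not pass the test turned sign in places. *Socs3* had a log2 fold of 0.020 with DESeq2 and -1.55 to 0.73 with 1 library left out. The ranges with 1 library left out were -0.39 to 0.71 for *Mrc1*, -0.19 to 1.33 for *Egr2*, -1.72 to 0.088 for *Il4ra*, -0.30 to 1.74 for *Cd74* and -1.38 to 0.016 for *Actb*.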
